A study of Mus musculus with 4 samples.

Results

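The mitochondrial ribosomal protein genes were followed in macrophages and monocytes of the mouse colon, at each stage of their maturation and on 2 diets. Members were all protein-coding genes of the deposited count matrix whose symbol starts with Mrpl (large subunit) or Mrps (small subunit). This gave 72 of the 11820 genes, of which 46 carry a large-subunit and 26 a small-subunit symbol. All 72 belong to the 10353 protein-coding genes of the matrix. The rule reads gene symbols only.

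Male C57/Bl6N mice aged 6 to 7 weeks were fed normal chow (replicates 9 and 11) or a coconut-based high-fat diet (HFD, 60% fat, replicates 1 and 3) for 1 week. Live CD45+ Lin- CD11b+ CD24- cells of the lamina propria that carried Ly6C or CD64 were sorted from each animal, and each mouse gave 1 droplet library, in which a molecular identifier (UMI) counts every captured RNA molecule once at its 3′ end. Values are therefore counts of captured molecules, given as counts per 1000000 UMIs of the sum they belong to (CPM), and need no correction for gene length. How well each gene was captured and counted was not tested, so levels of different genes are compared as counted.

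Mitochondria carry a small genome that codes for core subunits of the respiratory chain, and these are made by a ribosome of their own. Its RNA comes from the mitochondrial genome, while all of its proteins are coded in the nucleus, made in the cytosol and imported. The large subunit joins amino acids, the small subunit reads the messenger RNA, and both hold proteins that bacteria share as well as proteins added in the mitochondrial lineage. Monocytes that enter the colon lose Ly6C, gain MHC class II and end as resident macrophages rich in complement C1q.

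Cells were placed along this path by 3 marker levels, none of them a member. A cell counted as Ly6c2+ from 1 UMI, and the thresholds for MHC II (148 UMIs per 10000 of the cell) and C1q (23.5 per 10000) were set by Otsu's method over all 5420 cells. The monocyte stage (Ly6c2+ MHC II-low C1q-low) held 66 and 68 cells in chow replicates 9 and 11 and 283 and 338 in HFD replicates 1 and 3, and the resident stage (Ly6c2- MHC II-high C1q-high) held 714, 1680, 338 and 380. In the same order, the intermediate stage (Ly6c2- MHC II-high C1q-low) held 25, 27, 98 and 170 cells, a gate of Ly6c2+ MHC II-high C1q-high cells held 21, 68, 102 and 254, and the transitional stage (Ly6c2+ MHC II-high C1q-low) held 3, 19, 89 and 319. The transitional stage was too small in chow mice for a test between diets. A further 358 cells fell in no gate, 157 and 85 cells lay within 20% of the MHC II and C1q thresholds, and 566 cells had exactly 1 Ly6c2 UMI. Over all cells Ly6c2 was at 110 and 89.7 CPM in chow mice and at 611 and 787 in HFD mice. How many single Ly6c2 UMIs came from RNA free in the droplets was not tested. The gates carried the markers of their names: Chil3 and Plac8, genes of fresh monocytes, averaged 8786 and 9820 CPM in the monocyte stage and 143 and 635 in the resident stage. Over all cells, Csf1r, the receptor that macrophages and monocytes depend on, was at 823, 880, 581 and 552 CPM, whereas Itgam, which codes for the sorted CD11b, was at only 1.3, 1.51, 2.88 and 0.895 CPM. Total UMIs per mouse ran from 3824228 to 7947893, the median per cell from 3266 to 3926, and 23 barcodes occurred in more than 1 mouse. T and NK genes stayed at or under 21.8 CPM in sum in every gate and mouse. Plasma cell genes (Igha, Jchain, Cd79a) did not: their sum was 40599 and 26864 CPM in the monocyte stage of chow mice against 8593 and 6721 in HFD mice, and 46043, 13443, 92.4 and 93.1 CPM in the Ly6c2+ MHC II-high C1q-high gate. They came mostly from few cells, and the summed levels, the counts of called members and their medians were also computed without the 23 cells in which they took at least 1% of UMIs. In the resident stage plasma cell genes were at 728 and 660 CPM in chow mice against 153 and 110 in HFD mice. In the intermediate stage they were at 319 and 395 against 146 and 91.3 CPM.

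Promoters of 64 of the 72 members are held in the RefSeq set of GRCm38.p6 used here, as windows from 250 bases before to 50 after a start site. Of their 70 windows, 55.7% held CCGGAA, the core bound by ETS factors such as the nuclear respiratory factor GABP, on either strand, against 14.9% of all 32851 windows and 28.3% of those of protein-coding genes of the matrix. AAGATGGCG, the letters bound by YY1, stood in 11.4% of member windows, in 1.40% of all and in 3.18% of those of the matrix. GCGCATGCG, bound by NRF1, stood in 7.14%, 1.75% and 3.74%, and all 5 genes with it code for large-subunit proteins. CACGTG, the E-box, stood in 10.0%, 7.15% and 10.1%. The CCAAT box, CCAAT, stood in 41.4%, 37.4% and 37.4%. Both were about as frequent in members as in the matrix. A match is a description of the letters and not of a bound site.

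The windows shown are those of 5 of the 6 members that passed the threshold in resident cells on HFD, since the comparison of diets turns on them. The sixth is Mrpl54. The windows are read 5′ to 3′ on the strand of the gene, here the plus strand for all 5, with the letters of ETS, YY1, the E-box (bound by MYC and USF factors) and the CCAAT box of either strand in capitals. Mrpl52 (chr14:54426659-54426958) held the ETS core at 2 places on the opposite strand, 1 of them just past the start site, and Mrps14 (chr1:160194965-160195264) at 1 place past the start. Mrps18c (chr5:100798509-100798808) held it on both strands and an E-box. Mrpl36 (chr13:73330759-73331058) held a CCAAT box, an E-box and the YY1 letters, and Mrpl20 (chr4:155802628-155802927) an E-box and a CCAAT box without the ETS core. So 3 of the 5 held the ETS core, and the 5 windows shared no single one of these motifs.
Mrpl20: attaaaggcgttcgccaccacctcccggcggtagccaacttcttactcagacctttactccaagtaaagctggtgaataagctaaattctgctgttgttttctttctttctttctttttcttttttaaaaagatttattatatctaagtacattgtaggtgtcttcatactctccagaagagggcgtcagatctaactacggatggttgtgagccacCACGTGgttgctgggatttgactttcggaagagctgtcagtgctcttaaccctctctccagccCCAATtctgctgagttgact
Mrpl36: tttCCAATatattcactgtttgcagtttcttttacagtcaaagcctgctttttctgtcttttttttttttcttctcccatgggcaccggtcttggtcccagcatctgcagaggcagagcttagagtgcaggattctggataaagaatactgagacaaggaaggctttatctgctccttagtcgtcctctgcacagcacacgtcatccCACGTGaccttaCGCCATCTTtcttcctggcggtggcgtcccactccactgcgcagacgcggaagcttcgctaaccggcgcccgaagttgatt
Mrpl52: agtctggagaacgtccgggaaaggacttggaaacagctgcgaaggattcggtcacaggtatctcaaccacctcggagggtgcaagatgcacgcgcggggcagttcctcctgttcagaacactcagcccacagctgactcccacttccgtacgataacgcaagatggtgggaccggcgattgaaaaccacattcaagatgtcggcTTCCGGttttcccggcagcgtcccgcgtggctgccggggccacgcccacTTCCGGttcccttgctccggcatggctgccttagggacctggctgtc
Mrps14: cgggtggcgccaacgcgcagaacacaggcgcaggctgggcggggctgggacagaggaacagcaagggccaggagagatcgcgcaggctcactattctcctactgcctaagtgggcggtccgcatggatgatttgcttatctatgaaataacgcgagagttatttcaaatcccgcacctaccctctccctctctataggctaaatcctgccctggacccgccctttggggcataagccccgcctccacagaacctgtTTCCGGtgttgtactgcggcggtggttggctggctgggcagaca
Mrps18c: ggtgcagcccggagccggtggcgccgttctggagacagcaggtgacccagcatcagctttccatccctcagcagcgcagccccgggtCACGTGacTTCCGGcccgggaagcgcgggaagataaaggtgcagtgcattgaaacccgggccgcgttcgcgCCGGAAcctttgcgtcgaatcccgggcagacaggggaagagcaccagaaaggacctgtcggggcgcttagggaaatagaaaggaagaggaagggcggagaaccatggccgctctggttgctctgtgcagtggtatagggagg

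Over all cells, the members together made up 3922 and 3751 CPM in chow replicates 9 and 11 and 6068 and 6282 CPM in HFD replicates 1 and 3, from 15031, 29811, 23207 and 35082 member UMIs. Their levels were uneven. Mrps14, a small-subunit protein with a bacterial counterpart, was the highest at 321 CPM (SD 104, n = 4 mice), followed by Mrpl52 at 240 CPM (SD 97.6), a large-subunit protein found in mitochondria but not in bacteria. Mrps33, Mrpl30, Mrpl54, Mrpl42 and Mrpl14 lay between 167 and 236 CPM. The SD between the 4 mice, which includes the difference between diets, was larger than the steps between most of these neighbours. The 16 highest members supplied 51.7% of the sum, 39 members reached 50 CPM, and 7 stayed under 10 CPM. The lowest were Mrps18a with 20 UMIs and Mrpl3 with 29 in all cells together. Large-subunit members had a median of 58.4 CPM and small-subunit members of 47.4 CPM.

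The summed level was higher in both HFD mice than in both chow mice in every gate. In the monocyte stage it was 4768 and 4701 CPM in chow replicates 9 and 11 and 6454 and 5989 CPM in HFD replicates 1 and 3, a ratio of the means of 1.31. In the intermediate stage it was 4806, 5154, 6785 and 6833 CPM (ratio 1.37), and in the Ly6c2+ MHC II-high C1q-high gate 4052, 4127, 5640 and 6359 CPM (ratio 1.47). In the resident stage it was 3762, 3632, 5464 and 5974 CPM, a ratio of 1.55, and the transitional stage, with 3 and 19 chow cells, gave 5785, 5245, 6763 and 6598 CPM. No p is given for a sum over chosen genes. With 2 mice per diet an exact permutation test of any single value could not go below 0.33. These sums are scaled by library size alone, and on that scale the median gene also lay higher in HFD. On the log2 scale it did so by 0.10, 0.21, 0.14 and 0.11 in the monocyte stage, the Ly6c2+ MHC II-high C1q-high gate, the intermediate and the resident stage. Over all cells it was higher by 0.21. After TMM scaling the values were -0.01, 0.02, 0.10, -0.02 and -0.01 in the same order. The summed members lay higher by 0.39, 0.55, 0.45, 0.63 and 0.69 on that same library-size log2 scale. Without the cells rich in plasma cell genes the values were 0.39, 0.53, 0.45, 0.63 and 0.69.

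**Figure D1:**
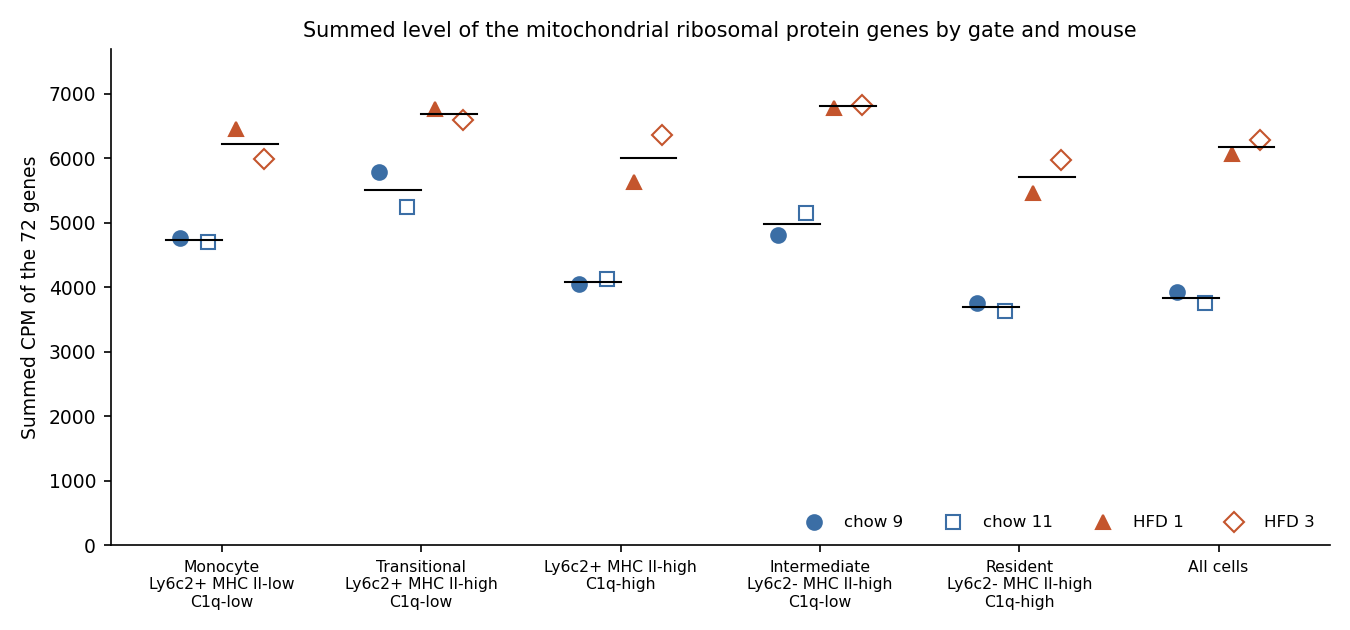
Summed CPM of the 72 mitochondrial ribosomal protein genes (y axis) in each gate and over all cells (x axis), 1 point per mouse, with lines at the mean of the 2 mice of a diet. The HFD points lie above the chow points in every gate, between 5464 and 5974 against 3632 and 3762 CPM in the resident stage.

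In resident cells, 6 of the 63 members that passed the filter on low counts passed an FDR of 1% with a higher level on HFD, and none with a lower one. Among all genes tested in this stage 4.60% were called higher and 4.17% lower. The 6 were Mrps18c, Mrpl20, Mrpl52, Mrpl54, Mrpl36 and Mrps14, all among the 10 highest members. Of the 63 members, 57 had a positive log2 fold change and 27 an unadjusted p under 0.05, against 32.3% of all genes, and in 53 (84.1%) the CPM of each HFD mouse exceeded that of each chow mouse, against 39.5% of all genes. The median log2 fold change of the members was 0.38, with quartiles at 0.21 and 0.62, and that of all genes -0.02. Counts were summed per mouse and tested with edgeR's quasi-likelihood test, and p-values were adjusted by the Benjamini-Hochberg method over the 5017 genes tested.

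Mrps18c codes for a small-subunit protein with a bacterial counterpart (chr5:100798627-100804471, GRCm38). It was at 88.5 and 74.5 CPM in the resident cells of chow replicates 9 and 11 and at 164 and 179 CPM in HFD replicates 1 and 3. Its log2 fold change was 0.95 (SE 0.16, edgeR adjusted p = 0.00372). The groups did not overlap, and the mice of a diet lay close to each other.
Mrpl20 (chr4:155802878-155809975) belongs to the large-subunit proteins kept from bacteria, where its counterpart acts in assembly. It was at 80.7, 82.6, 170 and 171 CPM in the same order, and its log2 fold change was 0.93 (SE 0.15, edgeR adjusted p = 0.00279). Mice of a diet were nearly equal.
Mrpl52 (chr14:54426909-54429756), a protein of the large subunit without a bacterial counterpart, was at 160, 142, 310 and 306 CPM. Its log2 fold change of 0.90 (SE 0.15, edgeR adjusted p = 0.00267) rested on the highest level among the large-subunit members. The groups lay far apart relative to the distance between mice of a diet.
Mrpl54 (chr10:81264713-81266934), likewise specific to mitochondria, was at 116, 97.9, 190 and 227 CPM, with a log2 fold change of 0.84 (SE 0.16, edgeR adjusted p = 0.00703). Its spread within each diet was wider than that of Mrpl20, without overlap.
Mrpl36 (chr13:73328513-73332178), among the smallest proteins of the large subunit, was at 83.5, 85.8, 146 and 164 CPM, with a log2 fold change of 0.74 (SE 0.15, edgeR adjusted p = 0.00972). Its gene overlaps Ndufs6, which codes for a complex I subunit and lies on the other strand, and the handling of strand in counting is not given in the sources used here, so reads of the pair may not be told apart.
Mrps14 (chr1:160195215-160202170), the highest member, was at 228, 217, 370 and 420 CPM, with a log2 fold change of 0.70 (SE 0.14, edgeR adjusted p = 0.00803). Again the groups did not overlap.

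Without HFD replicate 1 or without HFD replicate 3 no member passed by edgeR's quasi-likelihood test. The spread then came from the chow mice, moderated across genes, and the lone HFD mouse was assumed to vary like them. The log2 fold changes of the 6 stayed between 0.63 and 1.08 over all mice left out in turn. Without chow replicate 9 there were 10 calls and without chow replicate 11 there were 6. DESeq2 called 5 of the members higher, edgeR's likelihood-ratio test 12 and the main test without TMM factors 12. Without TMM factors the median of all genes was 0.11, against -0.02 with them. The share of all genes called under these fits is not given here, so these counts are no statement on the members alone.

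**Figure D2:**
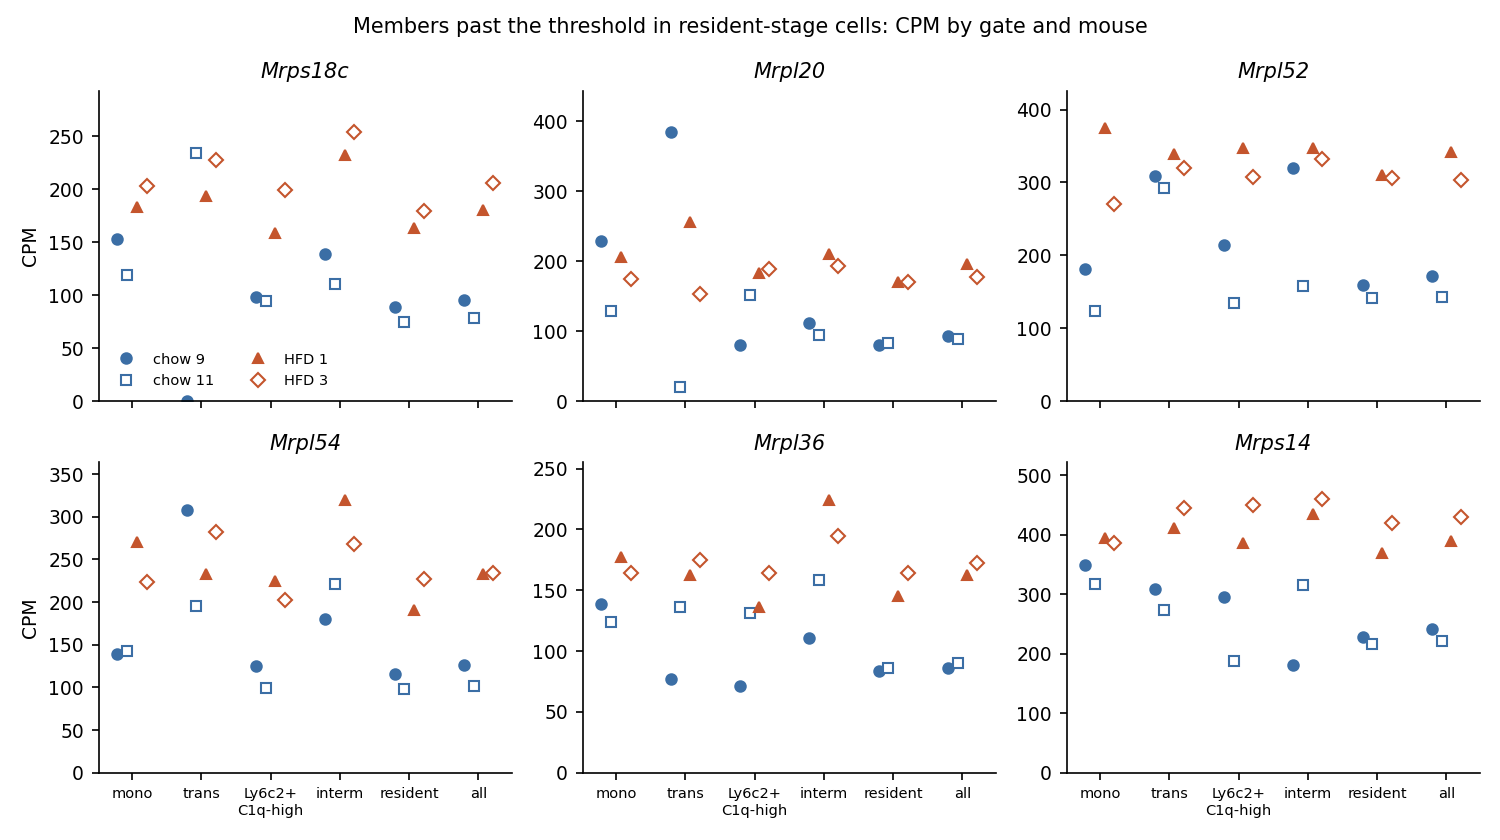
CPM (y axis, from 0) of the 6 members past the threshold in resident cells, by gate (x axis) and mouse, 1 panel per gene. In the resident stage the HFD points of each gene lie above its chow points, whereas in the transitional stage, with 3 cells in chow replicate 9, the chow points of Mrps18c and Mrpl20 lie far apart.

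The other highly expressed members pointed the same way in resident cells without passing. Mrpl14, a large-subunit protein at the interface with the small subunit, had a log2 fold change of 0.59 (SE 0.15, edgeR adjusted p = 0.0203), Mrps33 of 0.56 (SE 0.14, adjusted p = 0.0219) and Mrps16 of 0.65 (SE 0.17, adjusted p = 0.0264). Mrpl30, Mrps21 and Mrpl42 had values of 0.54, 0.53 and 0.47. By level, the 14 members with at least 100 CPM over all cells were all positive, with a median of 0.64, the 25 members between 50 and 100 CPM had a median of 0.36 with 24 positive, and the 24 tested of the 33 lower members had a median of 0.16 with 19 positive. All 6 calls fell in the highest class, where the median SE was 0.15 against 0.26 in the lowest. The 9 members that did not pass the filter (Mrpl3, Mrpl10, Mrpl23, Mrpl44, Mrps2, Mrps18a, Mrps22, Mrps27 and Mrps30) carry no statement on diet.

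A few members stood apart. Mrpl33, a small large-subunit protein with a bacterial counterpart, had the highest log2 fold change, 1.21, with the widest error (SE 0.51, edgeR adjusted p = 0.132). It was at 28.6 and 8.70 CPM in the chow mice and at 57.6 and 31.1 CPM in the HFD mice, so the mice of each diet differed among themselves, and its gene overlaps Rbks on the other strand. The lowest value belonged to Mrps26, at 39.4 and 26.4 CPM in the chow mice and 27.3 and 27.3 in the HFD mice (log2 fold change -0.38, SE 0.27, edgeR adjusted p = 0.379). Mrps24, a small-subunit protein with a bacterial counterpart, was at 98.7 CPM in chow replicate 9, 34.5 in chow replicate 11 and 59.9 and 57.1 in the HFD mice. Chow replicate 9 was above the other chow mouse in Mrps24 in 4 of the 5 gates, and without it the log2 fold change turned from -0.28 to 0.63. Mrps24 is the only member that overlaps another gene of the matrix, Urgcp, on its own strand. Mrps23 was level, at 39.4, 38.7, 37.9 and 42.8 CPM.

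**Figure D3:**
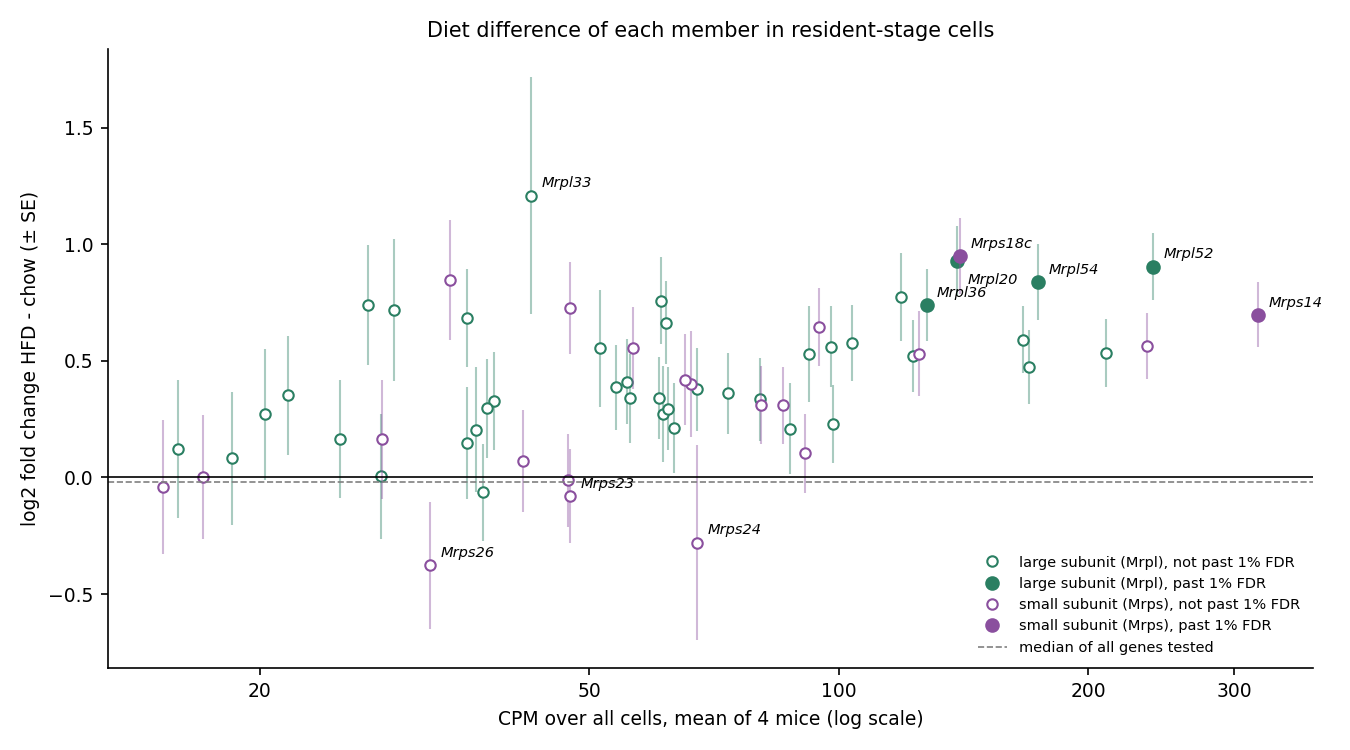
Log2 fold change between HFD and chow with its SE (y axis) of the 63 members tested in resident cells against their CPM over all cells (x axis, log scale), by subunit, with members past an FDR of 1% filled and the median of all genes as a dashed line. The 6 filled points, from 0.70 to 0.95, sit at the right, and 57 of 63 points lie above 0.

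Marker levels moved with diet inside the gates too. In the resident gate the 5 monocyte markers summed to 298 and 414 CPM in chow mice and to 1931 and 1888 CPM in HFD mice, and the 6 resident markers to 23517 and 25069 CPM against 17845 and 16942. The 4 dendritic markers stayed between 7.14 and 13.8 CPM there, and were at 0, 0, 55.7 and 15.1 CPM in the transitional stage. The monocyte markers went from 14443 and 19972 CPM on chow to 26696 and 25030 on HFD in the monocyte stage, from 2097 and 3857 to 5938 and 7045 in the intermediate stage, and from 1592 and 1312 to 4302 and 5444 in the Ly6c2+ MHC II-high C1q-high gate. The resident markers were lower in HFD mice in these 3 gates as well, at 1157 and 1935 against 599 and 766 CPM, 2278 and 2861 against 682 and 871 CPM, and 22355 and 23482 against 13946 and 13424 CPM. The sum of the 5 lineage markers (Csf1r, Lyz2, Fcgr1, Cd14 and Itgam) was lower in HFD mice in every gate tested between diets. Lyz2 supplied most of it, at 68659 and 76910 CPM on chow against 50048 and 57176 on HFD in the monocyte stage. There Fcgr1 was higher on HFD, at 182 and 197 against 298 and 270 CPM, and Csf1r and Cd14 overlapped between diets. The 5 markers summed to 24304 and 27884 CPM on chow against 20612 and 18874 on HFD in the resident stage. In the monocyte stage these sums were 71586 and 79910 against 53713 and 59852 CPM. In the Ly6c2+ MHC II-high C1q-high gate they were 23938 and 30639 against 21430 and 23166 CPM. The part of these differences in the members' values was not tested.

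In the monocyte stage none of the 59 members tested passed at an FDR of 1% by edgeR's quasi-likelihood test, where 1.19% of all genes did. Of the 59, 43 were positive, 11 had an unadjusted p under 0.05 (13.5% of all genes did), and the median was 0.29 against -0.01 for all genes. Without the cells rich in plasma cell genes there was no call either and the median was 0.31. DESeq2 called none, nor did the quasi-likelihood test in its newer form, which adjusts the degrees of freedom, and the likelihood-ratio test 1. Without the filter on low counts 2 members passed, and the median was 0.43. In 31 of the 59 each HFD mouse exceeded each chow mouse, against 29.1% of all genes. Mrpl28, a large-subunit protein with a bacterial counterpart, came nearest, at 9.57 and 41.3 CPM in chow and 106 and 95.2 CPM in HFD mice (log2 fold change 1.85, SE 0.47, edgeR adjusted p = 0.0386). Mrpl27, at 23.9, 27.5, 77.5 and 75.4 CPM, and Mrps25, at 14.3, 32.1, 65.9 and 63.5 CPM, came next in size, with log2 fold changes of 1.46 (edgeR adjusted p = 0.106) and 1.35 (adjusted p = 0.188). At the other end stood Mrpl22 (-1.19), Mrpl1 (-1.04) and Mrpl38 (-0.86), all with an edgeR adjusted p of 0.263 or more. Mrpl52 was higher in both HFD mice here as well, at 182, 124, 375 and 271 CPM (log2 fold change 0.98, SE 0.26, edgeR adjusted p = 0.0498). Mrps14 and Mrpl30, among the highest members, had small differences here, at 349, 316, 395 and 387 CPM and at 349, 349, 394 and 365 CPM, with log2 fold changes of 0.13 and 0.01. Epithelial genes summed to 524 CPM in the monocyte stage of HFD replicate 3 and to 4.59 CPM or less in that of the other mice, and their part in these values was not tested.

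In the intermediate stage none of 62 members passed, against 2.31% of all genes. There 45 were positive and 6 had an unadjusted p under 0.05 (15.4% of all genes), with a median of 0.37 against 0.10 for all genes. In 25 of them both HFD mice were above both chow mice, against 31.3% of all genes. Mrps33, a small-subunit protein without a bacterial counterpart, was nearest to the threshold, at 55.6 and 190 CPM in the chow mice and 331 and 284 in the HFD mice (log2 fold change 1.33, SE 0.40, edgeR adjusted p = 0.0318). The chow sums held only 71995 and 63256 UMIs, and extremes such as Mrpl37 (13.9 and 126 CPM on chow, 36.5 and 11.9 on HFD, log2 fold change -1.57) and Mrps26 (-0.98) turned sign when 1 chow mouse was left out: Mrpl37 to 0.66 without chow replicate 11 and Mrps26 to 0.89 without chow replicate 9. The 5 markers of the macrophage and monocyte lineage (Csf1r, Lyz2, Fcgr1, Cd14 and Itgam) summed to 32349 and 36550 CPM in the chow mice of this stage and to 12547 and 18942 CPM in the HFD mice, and the dendritic markers to 69.4, 0, 75.7 and 57.6 CPM. Their part in the members' values was not tested.

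In the Ly6c2+ MHC II-high C1q-high gate none of 64 members passed, against 4.01% of all genes. Here 49 were positive and 10 had an unadjusted p under 0.05 (18.8% of all genes), with a median of 0.30 against 0.02, and 35 had both HFD mice above both chow mice, against 35.5% of all genes. Mrpl52 was at 215, 134, 347 and 307 CPM (log2 fold change 0.82, SE 0.28, edgeR adjusted p = 0.0885), Mrps21 at 80.5, 71.3, 165 and 159 CPM (0.94, SE 0.33, adjusted p = 0.0994) and Mrps14 at 295, 188, 386 and 450 CPM (0.69, SE 0.26, adjusted p = 0.124). Mrpl16 was not counted at all in chow replicate 9 and stood at 22.8 CPM in chow replicate 11, with 60.3 and 49.5 CPM on HFD. Of the 64, 15 were negative, and the lowest were Mrps31 (log2 fold change -1.12), Mrpl49 (-0.67) and Mrpl45. Without the cells rich in plasma cell genes there was again no call, and the median was 0.26. It was 0.48 without TMM factors, where that of all genes was 0.21, and 0.50 without the filter on low counts. Over the mice left out it ran from 0.20 to 0.48. Neither DESeq2 nor the likelihood-ratio test called a member in this gate or in the intermediate stage. Without the filter on low counts 1 member passed in the intermediate stage, where the median was then 0.71.

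Over all cells 8 of 62 members passed an FDR of 1% as higher on HFD and none as lower, where 7.68% of all genes were called higher and 8.55% lower. In these sums a change of the level in a cell and a change of the share of each stage cannot be told apart: resident cells were 79.0% and 83.9% of the cells of the chow mice and 35.0% and 24.5% of those of the HFD mice. The 8 were the 6 members of the resident stage together with Mrpl30 and Mrps16, both with bacterial counterparts. Mrpl30, a large-subunit protein, was at 147, 146, 280 and 267 CPM (log2 fold change 0.68, SE 0.11, edgeR adjusted p = 0.00538). Mrps16, a small-subunit protein, was at 68.4, 61.1, 124 and 124 CPM (log2 fold change 0.72, SE 0.13, edgeR adjusted p = 0.00683). In 56 of the 62 each HFD mouse exceeded each chow mouse, against 50.4% of all genes, and 32 had an unadjusted p under 0.05, against 43.2%. Without either HFD mouse none of the members passed, again with the spread taken from the chow mice, while the median over members stayed between 0.37 and 0.42 over all mice left out in turn. Without chow replicate 11 there were 2 calls, of which 1 was higher and 1 lower. Without TMM factors 21 members were called, by the likelihood-ratio test 16 and without the filter on low counts 13. The median of all genes was 0.21 without TMM factors, against -0.01 with them. For these fits too the share of all genes called is not given here.

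Whether the effect of diet differed between stages was tested as an interaction between diet and stage, resident against monocyte, with a term for each mouse. None of 63 members passed at an FDR of 1% by edgeR's quasi-likelihood test, where 1.60% of all genes did, and 9 had an unadjusted p under 0.05, against 14.8% of all genes. DESeq2 and the likelihood-ratio test called none either, while 1 member passed without the filter on low counts and 1 without chow replicate 11. The median over members ran from -0.0736 to 0.21 over the mice left out. The calls in resident cells and the absence of calls in monocytes are thus not shown to differ. Of the 59 members tested in the 4 gates large enough for a test, 28 were positive in all 4, 19 in 3, 8 in 2 and 3 in 1, while Mrps26 was negative in all 4. Gate by gate, 48.6% to 54.7% of all genes were positive. The share of all genes positive in all 4 gates is not given here. The direction of a member in several gates is not independent, since the gates come from the same mice.

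**Figure D4:**
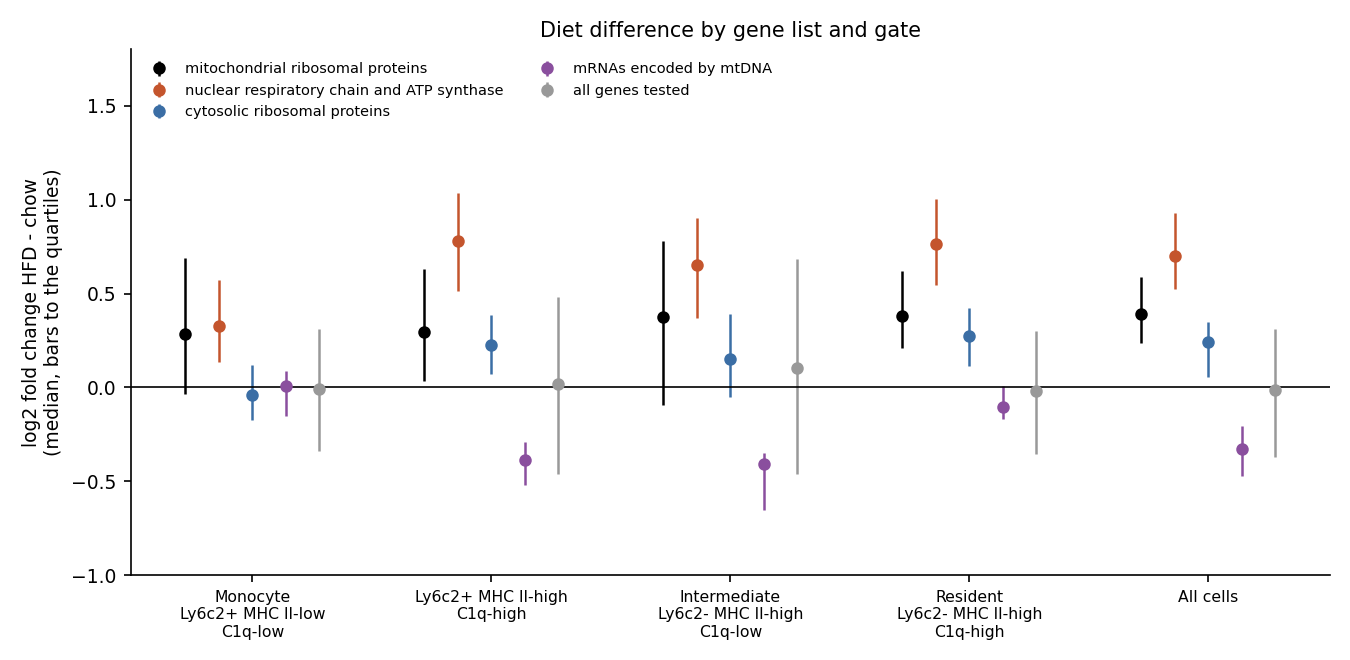
Median log2 fold change between HFD and chow (y axis), with bars to the quartiles, of the members, of 3 other gene lists and of all genes tested, in each gate large enough for a test and over all cells (x axis). Medians of the mitochondrial ribosomal proteins lie from 0.29 to 0.39, below those of the nuclear respiratory chain genes from 0.32 to 0.78, while the mRNAs of mitochondrial DNA run from -0.40 to 0.01.

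Other genes of the same machinery were read from lists. Of the 5 mitoribosome proteins without an Mrp symbol, 3 were tested in resident cells. Chchd1, a small-subunit protein of the mitochondrial lineage, was higher on HFD (log2 fold change 0.91, SE 0.16, edgeR adjusted p = 0.00446), and Aurkaip1, also of the small subunit, was just short (0.70, SE 0.15, edgeR adjusted p = 0.0103). No other list of mitochondrial protein synthesis had a call in that stage: none of 4 of the 13 translation factors, of 2 of the 18 aminoacyl-tRNA synthetases, of 6 of the 20 assembly and rRNA modification factors or of 4 of the 13 transcription and mRNA stability genes that could be tested, of which 0, 0, 0 and 2 had an unadjusted p under 0.05. Their transcripts are scarce, so that most did not pass the filter. Of the 13 messenger RNAs that mitochondrial DNA codes for, the products of which this ribosome makes, 12 were used here and 10 were tested in resident cells, and none was called by edgeR's quasi-likelihood test, with 3 positive, 1 at an unadjusted p under 0.05 and a median of -0.10. The nuclear-coded subunits of the respiratory chain and ATP synthase, which join those products in the same complexes, were higher in 38 of the 76 tested and lower in none, with a median of 0.76, where 4.60% of all genes were higher and 4.17% lower. Of 67 cytosolic ribosomal protein genes 1 was higher, a share below that of all genes, with a median of 0.27. In direction they were like the members: 61 of the 67 were positive, beside 57 of the 63 members and 48.6% of all genes. In the monocyte stage the median of the cytosolic ribosomal proteins was -0.04 and that of the members 0.29, and for every 1000 UMIs of cytosolic ribosomal proteins the members had 64.7 and 64.3 in chow mice and 83.4 and 88.8 in HFD mice there, and 76.8, 79.7, 89.5 and 99.2 in the resident stage. In the Ly6c2+ MHC II-high C1q-high gate the values were 87.6, 89.4, 90.0 and 107, a ratio of the means of 1.11, with chow replicate 11 and HFD replicate 1 nearly equal. Among regulators of mitochondrial and ribosomal genes, Myc was the only one called between diets, lower over all cells (log2 fold change -1.18, SE 0.19, edgeR adjusted p = 0.00474).

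Along maturation the summed CPM was highest in the transitional and intermediate stages and lowest in resident cells. Resident cells had 0.79, 0.77, 0.85 and 1.00 times the summed CPM of the monocyte stage in chow replicates 9 and 11 and HFD replicates 1 and 3. The mean ratio was 0.85 (SD 0.10). In HFD replicate 3 the resident and the monocyte stage were level, at 5974 and 5989 CPM. Resident cells also had less than the intermediate stage in 4 of 4 mice (mean ratio 0.79, SD 0.07). The transitional stage had more than the monocyte stage in 4 of 4 (mean ratio 1.12, SD 0.07), although the transitional sum of chow replicate 9 held 75 member UMIs from 3 cells. Per UMI of cytosolic ribosomal proteins the order of the resident and the monocyte stage turned, with 1.19, 1.24, 1.07 and 1.12 times as much in resident cells, above 1 in 4 of 4 mice. Of the 65 members tested one by one, 41 were lower in resident than in intermediate cells (median log2 difference -0.12 after TMM scaling, against 0.01 for all genes) and 41 were higher in the transitional than in the monocyte stage (median 0.06, against -0.03). Between the resident and the monocyte stage they were evenly split, with 34 of 65 positive and a median of 0.01, against 0.03 for all genes. By library size alone, the scale of the sums, the median over members was -0.04 and that over all genes -0.02. After TMM scaling the 14 members with at least 100 CPM had a median of -0.15 between these stages. By library size alone, the median over all genes was -0.15 for resident minus intermediate and 0.06 for transitional minus monocyte.

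At an FDR of 1%, 3 of the 65 members were lower in resident cells than in monocytes and 1 was higher, where 10.0% of all genes were lower and 10.4% higher. Mrpl30 was at 349, 349, 394 and 365 CPM in the monocyte stage and at 124, 137, 207 and 207 CPM in the resident stage of the same mice (log2 difference -0.96, SE 0.16, edgeR adjusted p = 8.52e-06). All 4 mice showed the fall, and the stages did not overlap. Mrpl33 was at 95.7, 27.5, 118 and 77.3 CPM in monocytes and 28.6, 8.70, 57.6 and 31.1 CPM in residents (-1.23, SE 0.24, edgeR adjusted p = 8.77e-05), a fall in each mouse although the mice differed in level. Mrpl4, a large-subunit protein with a bacterial counterpart, was at 71.7, 96.3, 110 and 111 CPM and at 47.2, 41.6, 51.5 and 60.3 CPM (-0.80, SE 0.21, edgeR adjusted p = 0.0028).

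Mrps36 was the member that rose, from 14.3, 18.3, 49.9 and 40.7 CPM in monocytes to 45.9, 49.6, 79.6 and 74.6 CPM in residents (log2 difference 1.05, SE 0.25, edgeR adjusted p = 0.00135). Despite its symbol, its product is known as a subunit of the oxoglutarate dehydrogenase complex of the citric acid cycle and not as part of the ribosome. By structure, then, none of the 21 small-subunit members tested was called between these stages and 3 of the 43 large-subunit members were lower. Among all genes 10.0% were lower and 10.4% higher, so neither subunit exceeded the share of all genes. Without the cells rich in plasma cell genes 3 members were higher and 3 lower. Without HFD replicate 3 the calls were 2 in all, and DESeq2, RLE factors and the likelihood-ratio test each gave 7. With all sums thinned to the depth of the smallest, that of the 3 transitional cells of chow replicate 9, no member passed and the median over members was 0.46. Mrpl42 (0.56, SE 0.19, edgeR adjusted p = 0.0191), Mrps33 (0.57, SE 0.19, adjusted p = 0.018) and Mrpl13 (0.75, SE 0.24, adjusted p = 0.0163), a large-subunit protein, lay higher in residents without passing.

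Between neighbouring stages no member passed by edgeR's quasi-likelihood test. From monocyte to transitional 3.92% of all genes were called, and 4 of 65 members had an unadjusted p under 0.05 against 17.3% of all genes. From transitional to intermediate 0.0177% of all genes, a single gene, was called, and none of the members had an unadjusted p under 0.05 against 4.90% of all genes. From intermediate to resident 5.77% of all genes were called, and 1 member had an unadjusted p under 0.05 against 20.6% of all genes.

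Large-subunit transcripts outnumbered small-subunit transcripts in every sum. The ratio of Mrpl to Mrps CPM in resident cells was 1.68 and 1.78 in chow replicates 9 and 11 and 1.82 and 1.86 in HFD replicates 1 and 3, a difference without overlap but of only 6.23% between the means. In the monocyte stage the ratio was 2.06, 2.21, 2.05 and 1.91, with both HFD mice below both chow mice by a small margin, so the stages went opposite ways. Counted by structure, with Mrps18a and Mrps30 in the large subunit, where they are known to sit, and without Mrps36, the monocyte groups overlapped, while without the highest member of each subunit they lay further apart, at 2.50, 2.72, 2.30 and 2.18. In the intermediate stage the ratio was 2.49, 2.02, 1.68 and 1.89, also lower in both HFD mice, with a difference of -20.9% between the means and of -22.4% by structure. In the Ly6c2+ MHC II-high C1q-high gate and the transitional stage the groups overlapped. Both subunits were higher on HFD in resident cells, the large subunit by a ratio of 1.58 (2358, 2324, 3523 and 3882 CPM) and the small by 1.49 (1405, 1307, 1940 and 2092 CPM). Among tested members the median log2 fold change was 0.38 for 42 large-subunit members, of which 41 were positive and 4 called, and 0.31 for 21 small-subunit members, of which 16 were positive and 2 called. Among all genes 48.6% were positive and 4.60% called higher. No test of the difference between the subunits was made.

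The ratio of large to small was also lower in resident cells, at 0.82, 0.80, 0.89 and 0.97 times its monocyte value, below 1 in 4 of 4 mice (mean 0.87, SD 0.08). Large-subunit transcripts were at 0.73, 0.72, 0.81 and 0.99 times the monocyte level and small-subunit transcripts at 0.90, 0.89, 0.92 and 1.01 times, so the large subunit had the lower ratio in each mouse. This is a statement on the sums: tested one by one between these stages, 22 of 43 large-subunit members were positive, with a median log2 difference of 0.03, and 12 of 22 small-subunit members, with a median of 0.01. Between the chow mice of the Ly6c2+ MHC II-high C1q-high gate the ratio of large to small ranged from 1.53 to 1.97.

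**Figure D5:**
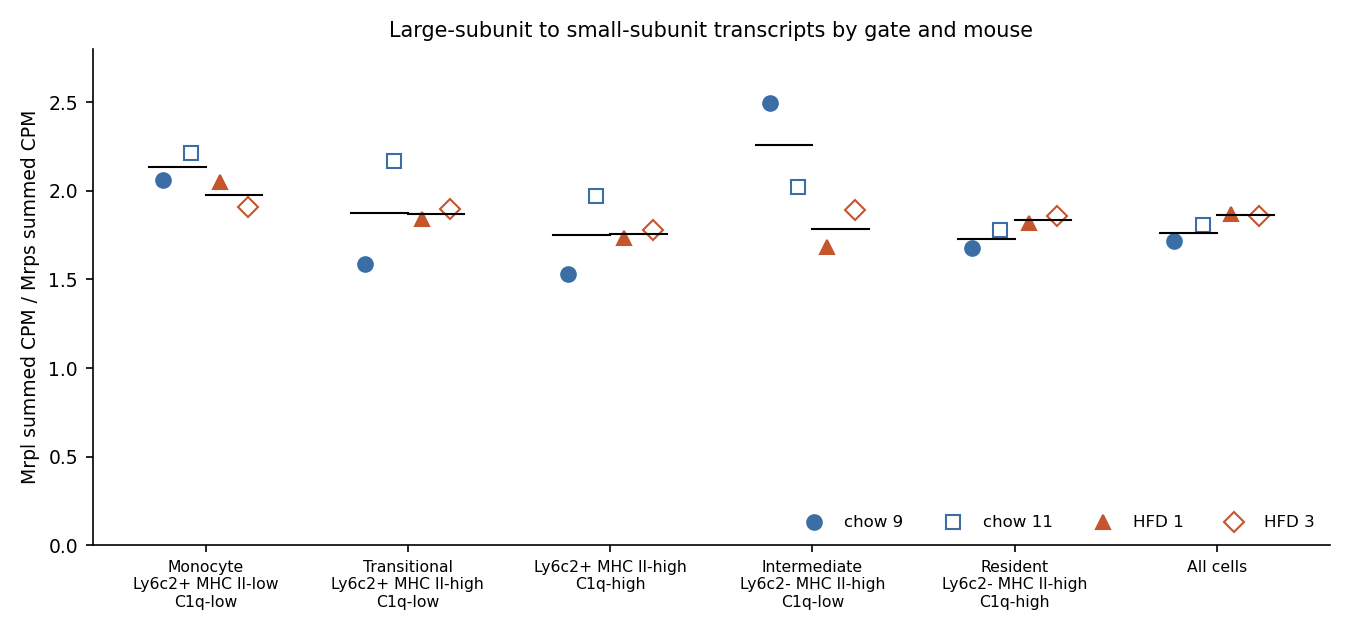
Ratio of summed Mrpl to summed Mrps CPM (y axis, from 0) by gate (x axis), 1 point per mouse, with lines at the mean of a diet. The ratio lies between 1.68 and 1.86 in the resident stage and between 1.91 and 2.21 in the monocyte stage, and chow mice scatter most in the gates with fewest cells.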

How the data were processed

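Single-cell RNA was counted in 4 mice, 2 per diet. The authors deposited raw UMI counts per gene and cell, made with kallisto 0.46.0 and bustools 0.39.2 per the submitters' processing notes, against a mouse transcriptome, after removal of poor cells, scarce genes and other cell types. Whether counting used strand is not given in the sources used here. Of 11820 genes, 11819 were matched to GENCODE M21. Rebuilt gates, not the authors' clusters, gave the stages. Scrublet (scanpy 1.11.5, run per mouse) marked 41 of 5420 cells (0.756%) as doublets, which were kept except in an alternative. Otsu thresholds came from scikit-image 0.26.0 and clusters of an alternative from scikit-learn 1.9.0.

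Counts were summed per mouse and gate and tested in R 4.3.3 with edgeR 4.0.16 (TMM factors, glmQLFit with the legacy setting, two-sided), keeping genes above 1 CPM in at least 2 sums and with a UMI in at least 5% of cells, at a Benjamini-Hochberg FDR of 1%. A gate needed 20 cells in every mouse for a test between diets. Contrasts between stages had a term for each mouse and left out the genes of the gates. SE is that of the log2 fold change. P-values set a difference against the spread between mice, moderated across genes. The weight of other genes, as prior degrees of freedom, ran from 4.53 over all cells to 89.0 in the intermediate stage. In fits with a term for each mouse, the spread is what remains after the level of each mouse is removed. DESeq2 1.42.0 was an alternative. Scripts were tested on simulated data.

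Members past the threshold, the 3 highest and 3 lowest fold changes per comparison and the 5 highest members of each subunit could be named, and others named here (such as Mrpl13, Mrps23, Mrps24 and Mrpl16) were partly chosen after their values were seen. The members and lists were chosen with earlier results of these data known. The Ly6c2+ MHC II-high C1q-high gate, the sums without plasma-rich cells and those without sums under 20 cells were added after seeing the data.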

Additional observations from a re-analysis of the deposited data

How the results depend on the processing

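No paired analysis was possible because the chow and HFD mice share no replicate number. With 2 mice per diet, the small chow gates limit what can be told. The cause of the shifts below was not tested. The share of all genes called under these alternatives is not given here, so the counts are no statement on the members alone. In the order monocyte, Ly6c2+ MHC II-high C1q-high, intermediate, resident and all cells, the count of called members ran over the mice left out from 0 to 2, 0 to 0, 0 to 0, 0 to 10 and 0 to 10, the median log2 fold change from 0.23 to 0.35, 0.20 to 0.48, 0.29 to 0.44, 0.33 to 0.45 and 0.37 to 0.42, and the summed log2 ratio from 0.34 to 0.45, 0.46 to 0.64, 0.40 to 0.50, 0.56 to 0.69 and 0.65 to 0.72. For resident against monocyte the calls ran from 2 to 5 and the median from -0.01 to 0.05, and for the interaction from 0 to 1 and from -0.0736 to 0.21. The likelihood-ratio test called 1 member in monocytes, 12 in residents, 16 over all cells and 7 between these stages. DESeq2 and RLE factors each called 7 between the stages. Without TMM factors there were 12 calls in residents and 21 over all cells, with medians of 0.39 (monocyte), 0.48 (Ly6c2+ MHC II-high C1q-high), 0.51 (resident) and 0.61 (all cells). Without the filter there were 2 calls in monocytes, 1 in the intermediate stage, 13 over all cells and 1 in the interaction, with medians of 0.43, 0.50 (Ly6c2+ MHC II-high C1q-high), 0.71, 0.44 and -0.0794. Ward clusters gave 11 resident calls, a resident summed log2 ratio of 0.70 and a monocyte median of 0.38, but 5 of the 6 clusters went to the resident stage, 1 of them with 375 resident beside 268 Ly6c2+ MHC II-high C1q-high, 272 transitional and 198 intermediate cells, so their resident set mixes stages. With Ly6c2 from 2 UMIs the intermediate median was 0.32. Sums thinned to equal depth gave an intermediate median of 0.23 and, between stages, 0 calls and a median of 0.46. Without plasma-rich cells the interaction median was -0.00917.

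Directions turned for single members, given with the range over the mice left out. In monocytes, Mrpl42 was at 0.0220 without TMM and 0.0769 without the filter (-0.21 to 0.0205), Mrpl30 at -0.00651 with Ly6c2 from 2 UMIs and -0.00197 without cells under 1500 UMIs (-0.0447 to 0.0589), and Mrpl14 ran from -0.0624 without chow replicate 9 to 0.72. In the Ly6c2+ MHC II-high C1q-high gate, Mrps33 was at -0.14 when thinned and Mrpl42 ran from -0.23 without chow replicate 9 to 0.98. In the intermediate stage, Mrps26 ran from -1.70 to 0.89 without chow replicate 9, Mrpl37 from -2.52 to 0.66 without chow replicate 11 and Mrpl30 from -0.0166 without HFD replicate 3 to 0.35. In residents, Mrps23 was at 0.0512 without TMM, 0.00944 with Ly6c2 from 2 UMIs and 0.19 with Ward clusters, and Mrps24 ran from -0.89 to 0.63 without chow replicate 9. Over all cells, Mrps5 was at 0.0756 without TMM and Mrps24 ran from -0.93 to 0.65 without chow replicate 9. Between stages, Mrps14 was at 0.0318 with DESeq2, 0.0171 with RLE factors, 0.0144 without the filter and 0.62 when thinned (-0.20 to 0.0227), Mrps16 was at 0.39 when thinned, and Mrpl14 ran from -0.0350 without HFD replicate 3 to 0.23.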
